A study of Mus musculus with 6 samples.

Results

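Acod1 and 8 genes of the tricarboxylic acid (TCA) cycle were followed in mouse macrophages that had met extracellular vesicles (EVs) released by Aspergillus flavus, a mould. The 9 genes were taken by name from a count table of 41972 entries: Acod1, Cs, Idh1, Idh2, Idh3a, Ogdh, Sdha, Sdhb and Mdh2. All 9 were found once and all 9 passed the filter on low counts, among 12740 genes tested. The cells were bone-marrow-derived macrophages of wild-type male C57BL/6 mice aged 6 weeks, grown for 6 days in medium conditioned by L-929 cells, which secrete M-CSF. For 6 h they received EVs of a strain labelled LD-F1, EVs of a strain labelled LD-F1_b (20 µg in each well for either) or PBS. Each of the 3 groups had 2 libraries, which the submitters call biological replicates. The labels do not say whether these came from separate animals, nor what the suffix b means. The treatment field of the labels reads co-culture for all 6 libraries, PBS included.

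The TCA cycle burns acetyl groups in the mitochondrial matrix and supplies electrons to the respiratory chain. Citrate synthase (Cs) opens it, and dehydrogenases of isocitrate, 2-oxoglutarate, succinate and malate (Idh, Ogdh, Sdh and Mdh genes) carry it on. Acod1, also known as Irg1, encodes the mitochondrial enzyme that decarboxylates cis-aconitate to itaconate. Macrophages are known to make itaconate after activation by microbial products. Itaconate inhibits succinate dehydrogenase, curbs the growth of some bacteria, and modifies the NRF2 repressor KEAP1.

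Acod1 lies on chromosome 14 from 103547901 to 103558306 in the positions of the deposited table, on the plus strand, and is annotated as protein coding (identifier MGP_C57BL6NJ_G0022031). No entry of the table overlaps it. Because its own response set it apart from the other members, the RefSeq sequence of the 250 bases before its annotated start is shown beside that of Cs and Sdha, whose levels are described below. These windows are from GRCm38.p6, at chr14:103046762-103047011 on the plus strand for Acod1, chr10:128337477-128337726 on the plus strand for Cs, and chr13:74350241-74350490 on the minus strand for Sdha. Sequences run 5′ to 3′ on the gene's strand, and capitals mark matches to any of 8 short motifs.
Acod1: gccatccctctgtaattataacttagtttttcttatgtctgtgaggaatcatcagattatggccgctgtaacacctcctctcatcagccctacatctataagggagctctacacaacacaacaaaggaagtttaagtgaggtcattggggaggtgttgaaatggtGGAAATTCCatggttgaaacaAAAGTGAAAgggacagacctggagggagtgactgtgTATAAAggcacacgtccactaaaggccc
Cs: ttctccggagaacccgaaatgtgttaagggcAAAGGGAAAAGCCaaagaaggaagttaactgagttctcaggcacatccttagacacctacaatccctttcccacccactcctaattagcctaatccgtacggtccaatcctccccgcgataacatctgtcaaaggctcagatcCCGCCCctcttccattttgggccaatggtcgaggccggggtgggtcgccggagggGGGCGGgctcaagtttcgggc
Sdha: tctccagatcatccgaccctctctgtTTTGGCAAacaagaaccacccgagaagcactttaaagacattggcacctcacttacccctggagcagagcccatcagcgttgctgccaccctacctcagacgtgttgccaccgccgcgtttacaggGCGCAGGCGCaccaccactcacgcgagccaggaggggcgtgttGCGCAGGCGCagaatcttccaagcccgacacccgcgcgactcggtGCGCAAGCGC

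The motifs were an NF-kB 9-mer (GGNNNTTCC), an interferon regulatory factor (IRF) core (AAANNGAAA), AP-1 (TGANTCA), C/EBP (TTNNGCAA), a TATA box (TATAAA), a GC box (GGGCGG), ETS (CCGGAAG) and the NRF1 motif, searched on both strands. They were chosen after the Acod1 sequence had been seen. In the Acod1 window, 1 stretch matched the NF-kB motif on both strands at -85 to -77 (counted back from the annotated start), the IRF core lay at -64 to -56 and the TATA box at -28 to -23. Of 32851 promoter windows of the same length in the RefSeq table, 15.7% held the NF-kB motif, 9.37% the IRF core and 12.4% the TATA box, and 55 held all 3 (0.167%). The Cs window also held an NF-kB match, which overlapped its IRF match, and a pair of GC boxes but no TATA box. Of the 7 other matched members, 4 (Cs, Idh1, Sdhb and Mdh2) held the NF-kB motif in a window and 1, Cs, the IRF core. Counted by window, as the shares above are, these were 4 and 1 of the 13 windows of those members.

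RefSeq windows were matched for 8 of the 9 members, with Idh3a the exception. Idh1 has 2 annotated starts and Ogdh has 6. Some of the Ogdh windows overlap, so counts of windows are not counts of separate sequences. Across the 13 windows of the 7 matched members other than Acod1, 0 held a TATA box and 8 held a GC box, a motif found in 32.7% of all windows and not in that of Acod1. By member, 6 of the 7 held a GC box. Sdha held 3 NRF1 matches, a motif in 3.74% of windows. The Acod1 window contained 2 CpG dinucleotides and 44.4% G and C, against 9 to 35 CpG in the other members' windows, where the share of G and C was higher in each and reached 74.0%. A match describes letters and does not show that a factor binds there.

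Libraries held 13722215 to 15277997 counts. Levels are given as CPM, counts scaled to a common library size with TMM factors, or as TPM, a value per gene length that lets genes be compared with each other. The macrophage genes Csf1r (1142 to 1336 CPM over the 6 libraries), Cd68 (533 to 673) and Adgre1 (388 to 451) were high, while Itgam and Mertk were at or near 0 (at most 0.252 and 0.652 CPM). Of 9 markers of neutrophils and their precursors, which are also known to express Acod1, S100a9, Ly6g, Elane, Ngp and Retnlg had 0 counts in every library. That list summed to 1.21 to 1.5 CPM with LD-F1 EVs, 0.691 to 0.904 with LD-F1_b EVs and 0.522 to 0.567 with PBS. Of 5 dendritic cell markers, Xcr1 had 7.72 and 8.39 CPM with LD-F1 EVs, 4.8 and 4.08 with LD-F1_b EVs, and 1.31 and 1.13 with PBS, and the part it had in the results was not tested. Zbtb46 was at 0.675 and 0.356 CPM with LD-F1 EVs, 1.04 and 0.553 with LD-F1_b EVs, and 1.24 and 0.693 with PBS, Flt3 and Clec9a were at most 0.348 CPM, and Siglech had 0 counts. The LD-F1 libraries differed from each other more than other replicates did (chi-square per degree of freedom 17.9, against 5.58 for LD-F1_b and 3.19 for PBS), and their log2 difference followed gene length (Spearman's rho = 0.332 across 12740 genes, against 0.096 and 0.00919, with genes not being independent replicates).

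Acod1 rose strongly with EVs of both strains, and more with LD-F1 EVs. It stood at 471 and 363 CPM with LD-F1 EVs, 200 and 194 CPM with LD-F1_b EVs, and 26.2 and 29.0 CPM with PBS. The 3 groups did not overlap, and the LD-F1 libraries lay farther apart than those of the other groups. The counts behind these levels were 6288 and 5100 with LD-F1 EVs, 2879 and 2806 with LD-F1_b EVs, and 401 and 461 with PBS. In bulk RNA, more RNA per cell and more cells that express the gene cannot be told apart.

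**Figure D1:**
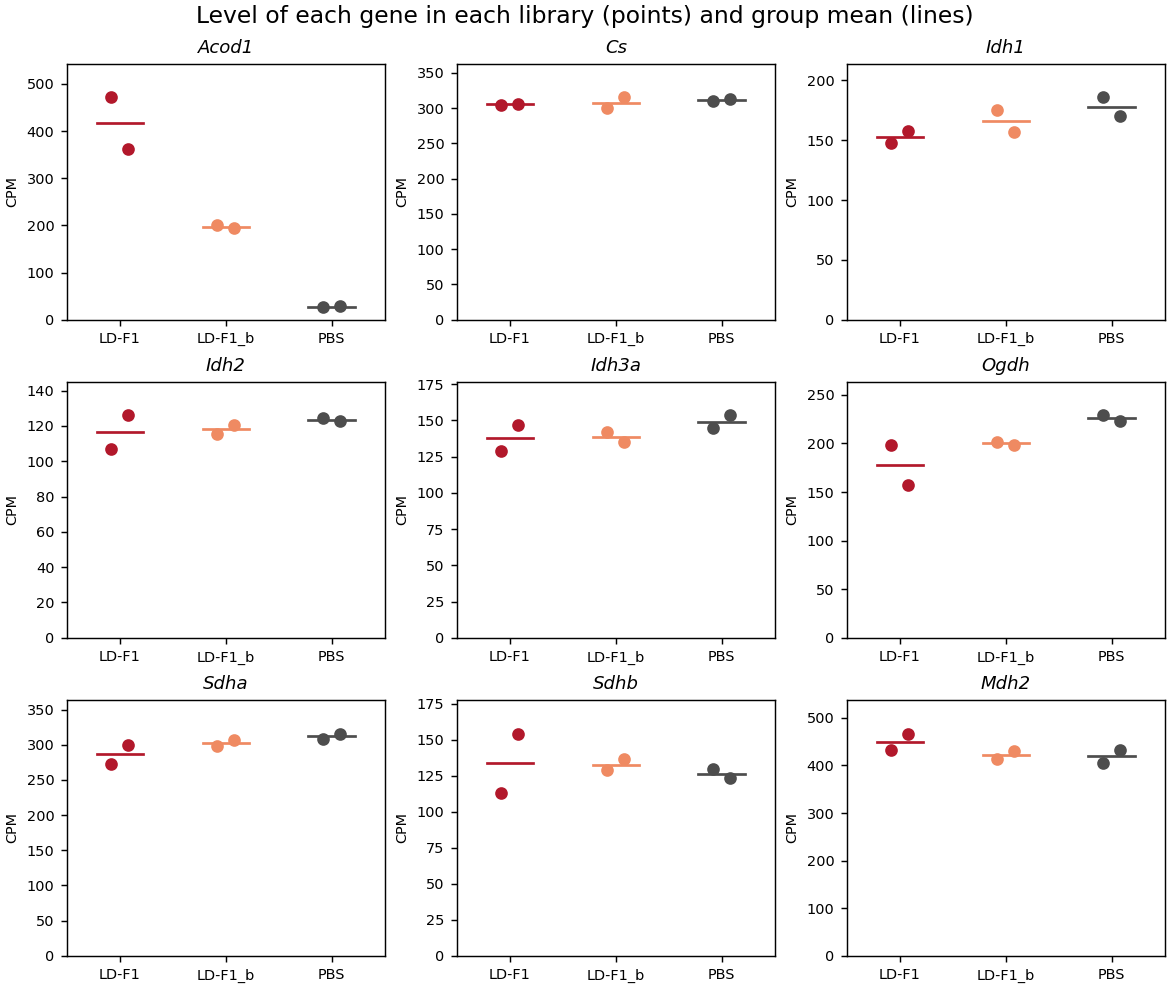
CPM of the 9 genes in each of the 6 libraries (points, replicate 1 left of replicate 2) with the mean of each group (lines), on linear axes that start at 0. Acod1 separates the 3 groups, at 363 to 471, 194 to 200 and 26.2 to 29.0 CPM, whereas the groups lie closer together in the other 8 genes.

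Relative to PBS, Acod1 was 15.1-fold higher with LD-F1 EVs (95% interval 12.4 to 18.4; log2 fold change 3.92 ± 0.13 SE, n = 2 per group, edgeR adjusted p = 9.19e-09). Among the 12740 genes tested it had the second smallest p-value of that comparison, rank 2, and the log2 fold change of rank 19. With LD-F1_b EVs it was 7.13-fold higher than with PBS (interval 5.88 to 8.66; 2.83 ± 0.13, edgeR adjusted p = 2.66e-07), at rank 2 by p-value and rank 25 by log2 fold change. Both EV comparisons use the same PBS libraries. The calls against PBS held in all 16 alternative analyses, with log2 fold changes of 3.64 to 4.09 for LD-F1 EVs and 2.76 to 2.91 for LD-F1_b EVs.

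Between EVs of the 2 strains, Acod1 was lower with LD-F1_b EVs than with LD-F1 EVs (log2 fold change -1.08 ± 0.12 SE, 0.473-fold, interval 0.397 to 0.563, n = 2 per group, edgeR adjusted p = 0.00133). Both LD-F1_b libraries lay below both LD-F1 libraries. This call was lost when either LD-F1_b library was left out (-1.10 without replicate 1 and -1.06 without replicate 2, edgeR adjusted p = 0.119 and 0.143), settings in which edgeR called 1 and 0 of all genes tested. Over all 16 alternatives the log2 fold change ran between -1.28 and -0.84, with adjusted p between 1.52e-24 and 0.143. Of all genes tested, 0.424% were called between EVs of the 2 strains, with 0.408% lower and 0.0157% higher with LD-F1_b EVs.

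On the scale per gene length, Acod1 reached 506 and 360 TPM with LD-F1 EVs and 212 and 206 TPM with LD-F1_b EVs, against 30.7 and 33.8 TPM with PBS. By mean TPM it ranked 341st of the genes tested with LD-F1 EVs and 789th with LD-F1_b EVs, against 5245th with PBS. In PBS macrophages it was the lowest of the 9 genes, and with LD-F1_b EVs it lay below Mdh2, Cs and Sdha and above the other members. With LD-F1 EVs it stood first, and its libraries did not overlap those of Mdh2, the next gene (342 ± 0.991 TPM, SD, n = 2).

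Cs makes the citrate from which itaconate is formed. The ratio of Acod1 to Cs in TPM was 1.67 and 1.28 with LD-F1 EVs, 0.718 and 0.663 with LD-F1_b EVs, and 0.0910 and 0.100 with PBS. The groups did not overlap in this ratio, and Acod1 exceeded Cs per gene length in both LD-F1 libraries and in none of the other 4.

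**Figure D2:**
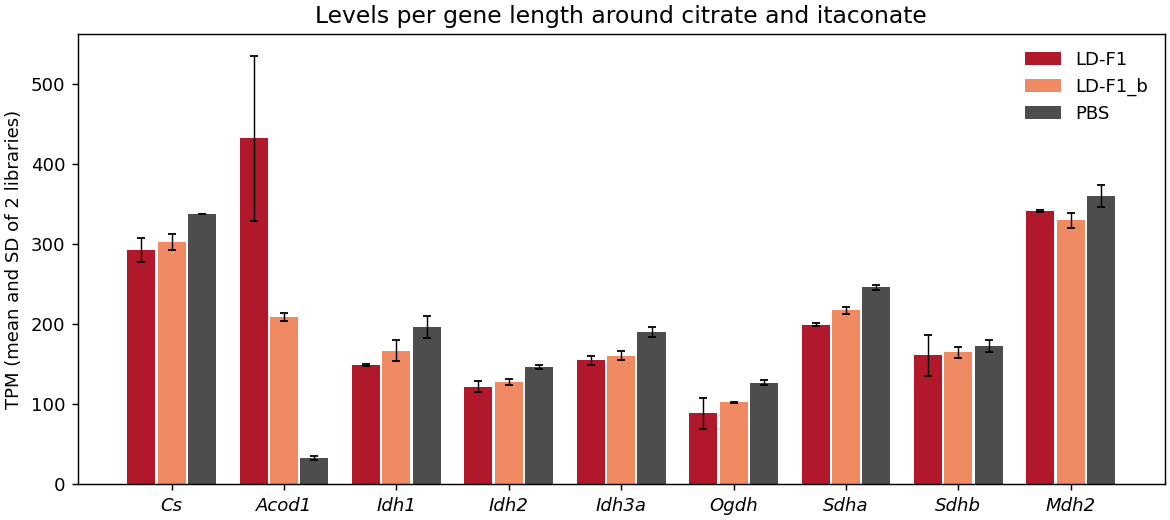
TPM, a level per gene length, of the 9 genes in the 3 groups (bars: mean of 2 libraries, error bars: SD), on a linear axis from 0. Acod1 stood at 433 ± 103 TPM with LD-F1 EVs, 209 ± 4.84 with LD-F1_b EVs and 32.2 ± 2.16 with PBS.

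The 8 TCA cycle members stayed within 0.786-fold to 1.07-fold of PBS with LD-F1 EVs and within 0.885-fold to 1.05-fold with LD-F1_b EVs. With LD-F1 EVs, 1 of the 8 was called, Ogdh, which was lower, and 0 were higher. At an unadjusted p under 0.05 there were 2, Ogdh and Idh1, both lower. For the members together, 2 of 9 were called, against 21.2% of all genes tested (11.4% higher and 9.87% lower). With LD-F1_b EVs, edgeR called 0 of the 8, as did DESeq2 and limma voom, and 0 had an unadjusted p under 0.05, while 11.0% of all genes tested were called (6.44% higher and 4.54% lower). Between EVs of the 2 strains 0 of the 8 were called by any of these tools, where edgeR called only 0.424% of all genes tested. Of the 8, 0 had an unadjusted p under 0.05 there. The median log2 fold change of the 8 was -0.10 with LD-F1 EVs and -0.05 with LD-F1_b EVs, beside 0.01 for all genes tested in each.

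Cs, citrate synthase, varied little across the 6 libraries. It stood at 305 and 306 CPM with LD-F1 EVs, 301 and 315 CPM with LD-F1_b EVs, and 310 and 313 CPM with PBS. Its 95% intervals against PBS were 0.869-fold to 1.10-fold with LD-F1 EVs and 0.876-fold to 1.11-fold with LD-F1_b EVs.

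The isocitrate dehydrogenases are encoded by 3 of the members. Idh1, the NADP-linked enzyme of the cytosol, had 148 and 158 CPM with LD-F1 EVs, 175 and 157 CPM with LD-F1_b EVs, and 186 and 170 CPM with PBS. Both LD-F1 libraries lay below both PBS libraries, and the fold was 0.860 (interval 0.747 to 0.990; -0.22 ± 0.09 SE, edgeR adjusted p = 0.125). That value passed the threshold in 5 of 16 alternatives. Among them were library totals alone (-0.32, edgeR adjusted p = 0.0266), which moved the median of all genes to -0.10, and offsets for gene length (-0.26, 0.0429). Without LD-F1 replicate 2, Idh1 was at -0.27.

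Idh2, the NADP-linked enzyme of mitochondria, had 107 and 126 CPM with LD-F1 EVs, 116 and 120 CPM with LD-F1_b EVs, and 125 and 123 CPM with PBS. Idh3a, the catalytic subunit of the NAD-linked enzyme of the cycle proper, had 129 and 146 CPM with LD-F1 EVs, 142 and 135 CPM with LD-F1_b EVs, and 145 and 153 CPM with PBS. In both genes the LD-F1 libraries overlapped the PBS libraries, and the LD-F1_b libraries lay just below them. Without LD-F1 replicate 2, Idh3a passed the threshold (-0.22, edgeR adjusted p = 0.0474), from -0.12 ± 0.09 SE (adjusted p = 0.422) in the full fit. The partner subunits Idh3b and Idh3g were at 0.00 ± 0.08 and 0.06 ± 0.09 with LD-F1 EVs and at 0.04 ± 0.08 and 0.14 ± 0.09 with LD-F1_b EVs, with adjusted p of 0.346 to 0.988. Per gene length, Idh1 exceeded Idh2 in all 6 libraries, by 1.28-fold and 1.17-fold with LD-F1 EVs, 1.41-fold and 1.21-fold with LD-F1_b EVs, and 1.39-fold and 1.29-fold with PBS.

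Ogdh, the first component of the 2-oxoglutarate dehydrogenase complex, was the TCA cycle member that fell. Its levels were 198 and 157 CPM with LD-F1 EVs, 201 and 199 CPM with LD-F1_b EVs, and 229 and 223 CPM with PBS. All 4 EV libraries lay below both PBS libraries, and LD-F1 replicate 2 was the lowest of the 6. The fold against PBS was 0.786 with LD-F1 EVs (interval 0.671 to 0.921; -0.35 ± 0.10 SE, edgeR adjusted p = 0.0341) and 0.885 with LD-F1_b EVs (interval 0.756 to 1.04; -0.18 ± 0.10, adjusted p = 0.333). The difference between EVs of the 2 strains did not pass (0.17 ± 0.10, adjusted p = 0.719), and it did without LD-F1 replicate 1 (0.34, adjusted p = 0.00421).

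The log2 fold change of Ogdh with LD-F1 EVs moved with the LD-F1 libraries. It was -0.53 without LD-F1 replicate 1 (edgeR adjusted p = 8.49e-06) and -0.19 without LD-F1 replicate 2 (0.0487). At log2 fold changes of -0.37 to -0.33, close to that with all libraries, the call was lost without PBS replicate 1 or 2 (adjusted p = 0.213 and 0.155), without LD-F1_b replicate 1 or 2 (0.0861 and 0.0883), and in a fit of the LD-F1 and PBS libraries alone (0.0926). With LD-F1_b EVs, Ogdh passed the threshold when LD-F1 replicate 1 or 2 was left out (-0.18 each, 0.0205 and 0.0235) and when only the LD-F1_b and PBS libraries were fitted (-0.18, 0.022).

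The LD-F1 libraries differed by gene length over all genes, which the 9 members followed only in part. Ogdh is the longest member, at 5456 bases, where the median of the genes tested is 3475, and it was 0.33 higher in LD-F1 replicate 1 than in replicate 2 on the log2 scale. Sdhb is the shortest, at 2239 bases, and was at -0.45 in the same difference. Sdha and Mdh2, the next longest at 3883 and 3562 bases, were at -0.13 and -0.11. Acod1, at 2623 bases, was at 0.38, apart from the members of like length, which lay between -0.23 and -0.01. With offsets for gene length, Ogdh was at -0.29 ± 0.09 SE with LD-F1 EVs (edgeR adjusted p = 0.0257), and at -0.17 when LD-F1 replicate 2 was left out as well (adjusted p = 0.065).

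**Figure D3:**
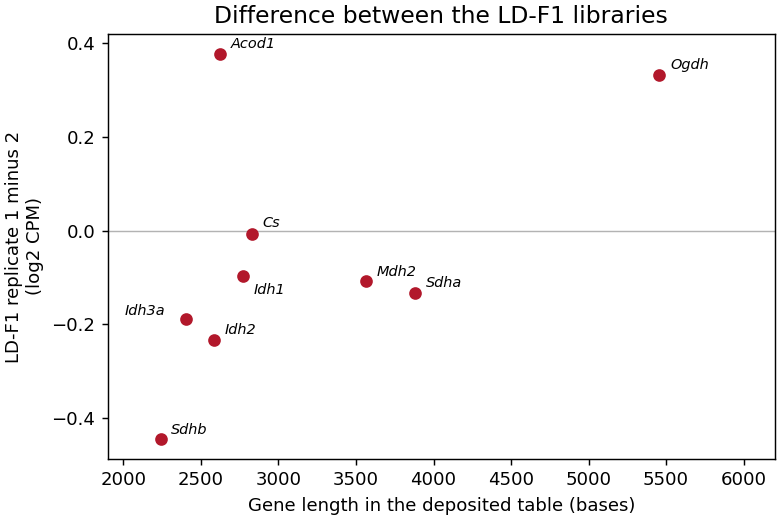
Difference in log2 CPM between LD-F1 replicate 1 and replicate 2 (y axis) against the gene length in the deposited table in bases (x axis) for the 9 genes. Ogdh (0.33) and Acod1 (0.38) were higher in replicate 1, and Sdhb (-0.45) was the lowest.

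The other components of the complex differed from Ogdh. Dlst, the succinyl transferase, was at -0.01 ± 0.08 SE with LD-F1 EVs (edgeR adjusted p = 0.943). Dld, the lipoamide dehydrogenase shared with pyruvate dehydrogenase, rose with LD-F1 EVs (0.34 ± 0.10, adjusted p = 0.0257), at 219 and 260 CPM with LD-F1 EVs, 219 and 216 CPM with LD-F1_b EVs, and 193 and 186 CPM with PBS. The Dld call was lost with library totals alone (0.23, adjusted p = 0.1), in a fit of the LD-F1 and PBS libraries alone (0.0759), without either PBS library (0.155 and 0.226) and without either LD-F1_b library (0.0729 and 0.0746). Without LD-F1 replicate 1 and 2 its log2 fold change was 0.45 and 0.20. With LD-F1_b EVs Dld was at 0.20 ± 0.10 (adjusted p = 0.229). It passed the threshold there in 3 of 16 alternatives, among them a fit of the LD-F1_b and PBS libraries alone (0.19, edgeR adjusted p = 0.0148). Between EVs of the 2 strains Dld was at -0.14 ± 0.10 (adjusted p = 0.758).

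Succinate dehydrogenase, the target of itaconate, is represented by its flavoprotein subunit Sdha and its iron-sulphur subunit Sdhb. Sdha had 273 and 299 CPM with LD-F1 EVs, 299 and 307 CPM with LD-F1_b EVs, and 308 and 316 CPM with PBS. Its EV libraries all lay below the PBS libraries, by margins that did not pass (-0.12 ± 0.08 SE with LD-F1 EVs, edgeR adjusted p = 0.333; -0.04 ± 0.08 with LD-F1_b EVs, adjusted p = 0.816). Without LD-F1 replicate 2 the first of these was -0.19 (adjusted p = 0.0391).

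Sdhb had 113 and 154 CPM with LD-F1 EVs, 129 and 136 CPM with LD-F1_b EVs, and 130 and 123 CPM with PBS. The LD-F1 libraries lay on either side of the PBS libraries, and the interval ran from 0.877-fold to 1.28-fold (0.08 ± 0.12 SE, edgeR adjusted p = 0.695). Without LD-F1 replicate 1 the value was 0.29 (adjusted p = 0.00581), and without replicate 2 it had the other sign, at -0.16 (adjusted p = 0.165). The membrane anchors Sdhc and Sdhd were at 0.19 ± 0.10 and -0.12 ± 0.09 with LD-F1 EVs and at 0.18 ± 0.10 and -0.13 ± 0.09 with LD-F1_b EVs, with adjusted p of 0.204 to 0.414.

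Mdh2, the mitochondrial malate dehydrogenase that regenerates oxaloacetate, was the most abundant of the 8 TCA cycle members per gene length in every group. It had 433 and 467 CPM with LD-F1 EVs, 413 and 431 CPM with LD-F1_b EVs, and 406 and 433 CPM with PBS. Both LD-F1 libraries lay above both PBS libraries by less than 1 CPM at the closest, and the log2 fold change was 0.10 ± 0.08 SE (edgeR adjusted p = 0.434), with an interval of 0.945-fold to 1.22-fold. With LD-F1_b EVs it was at 0.01 ± 0.08 (adjusted p = 0.961). Fumarase (Fh1), the step before it, was at -0.10 ± 0.09 with LD-F1 EVs (adjusted p = 0.438) and at -0.01 ± 0.09 with LD-F1_b EVs (adjusted p = 0.951).

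**Figure D4:**
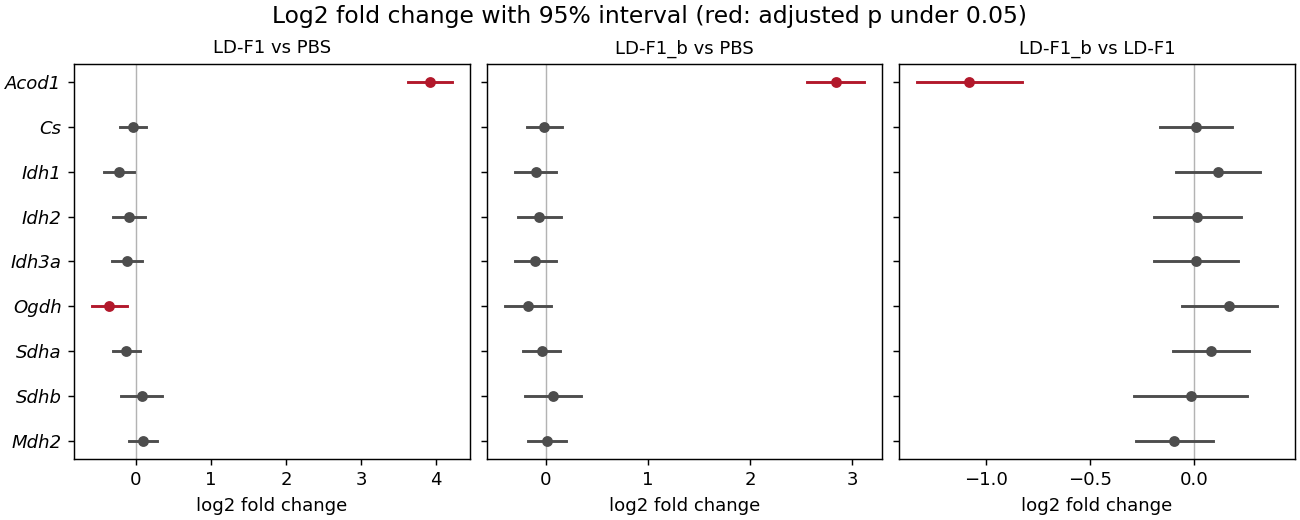
Log2 fold change (points) and 95% interval (lines) of the 9 genes in the 3 comparisons, with x axes that differ in range. Red marks an edgeR adjusted p under 0.05, reached by Acod1 in all 3 comparisons and by Ogdh for LD-F1 against PBS.

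Groups that do not overlap were common among all genes, at 59.5% for LD-F1 EVs against PBS, 60.4% for LD-F1_b EVs against PBS and 34.0% between EVs of the 2 strains. The members showed this for 6, 5 and 3 of 9 genes in these comparisons. Summed over the 8 TCA cycle members, levels were 1706 and 1815 CPM with LD-F1 EVs, 1776 and 1801 CPM with LD-F1_b EVs, and 1837 and 1854 CPM with PBS. The same sum in TPM was 1505 and 1511 with LD-F1 EVs, 1562 and 1581 with LD-F1_b EVs, and 1779 and 1775 with PBS. The EV libraries were below PBS in both sums, by a wider margin in TPM. TPM carries no TMM factor and also divides by gene length, and the source of the wider margin was not tested. Acod1 made up 25.1% and 19.2% of the TPM of the 9 genes with LD-F1 EVs, 12.0% and 11.5% with LD-F1_b EVs, and 1.70% and 1.87% with PBS.

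Around the members, 60 tested genes of pyruvate entry, the rest of the cycle, its side branches and carriers, succinate dehydrogenase assembly, itaconate handling and mitochondrial content were listed. With LD-F1 EVs 5 of the 60 rose and 4 fell, 15% in all, against 21.2% of all genes tested. With LD-F1_b EVs 5 rose and 1 fell, 10.0% against 11.0%. Between EVs of the 2 strains edgeR called 0 of the 60, against 0.424% of all genes tested. DESeq2 and limma voom also called 0 of the 60, and 4 had an unadjusted p under 0.05. The count with LD-F1 EVs was 24 without LD-F1 replicate 1, 5 without PBS replicate 1 and 4 without PBS replicate 2. With LD-F1_b EVs it was 15 without either LD-F1 library, 1 without LD-F1_b replicate 1 or either PBS library, and 2 without LD-F1_b replicate 2. Of the 13 other enzymes and subunits of the cycle, Dld was the 1 called with LD-F1 EVs and 0 were called with LD-F1_b EVs (1 at an unadjusted p under 0.05, and 0 by DESeq2 or limma voom). The succinyl-CoA ligase subunits Suclg1, Suclg2 and Sucla2 lay between -0.15 and 0.17 against PBS in both EV groups.

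Among the side branches and pyruvate entry, Pck2, Pcx, Me1 and Gpt2 rose with both kinds of EVs. Not called with LD-F1 EVs were the second malic enzyme tested, Me2 (-0.13 ± 0.09 SE), the aspartate aminotransferases Got1 (0.23 ± 0.09) and Got2 (-0.17 ± 0.08) and the cytosolic malate dehydrogenase Mdh1 (0.12 ± 0.11), with edgeR adjusted p of 0.115 to 0.489. Pck2, the mitochondrial carboxykinase that makes phosphoenolpyruvate from oxaloacetate, had 123 and 141 CPM with LD-F1 EVs, 102 and 109 CPM with LD-F1_b EVs, and 44.9 and 45.9 CPM with PBS. It rose by 1.53 ± 0.10 SE with LD-F1 EVs (edgeR adjusted p = 8.88e-07) and by 1.22 ± 0.10 with LD-F1_b EVs (adjusted p = 1.45e-05). Pcx, pyruvate carboxylase, which makes oxaloacetate from pyruvate, had 17.8 and 17.3 CPM with LD-F1 EVs, 17.2 and 14.8 CPM with LD-F1_b EVs, and 9.79 and 9.64 CPM with PBS (0.85 ± 0.16, adjusted p = 0.00227, and 0.72 ± 0.16, adjusted p = 0.0119). The Pck2 calls and the Pcx call with LD-F1 EVs held in all 16 alternatives. The Pcx call with LD-F1_b EVs was lost without LD-F1_b replicate 1 or either PBS library.

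Me1, the cytosolic malic enzyme, rose by 0.77 ± 0.11 with LD-F1 EVs (edgeR adjusted p = 0.000381) and by 0.41 ± 0.11 with LD-F1_b EVs (adjusted p = 0.0331). The first call held in all 16 alternatives, and the second was lost with library totals alone and whenever an LD-F1_b or a PBS library was left out. Gpt2, the mitochondrial alanine aminotransferase, rose by 0.55 ± 0.11 (adjusted p = 0.00335) and by 0.38 ± 0.11 (adjusted p = 0.0449). Its call with LD-F1 EVs was lost without PBS replicate 2. Its call with LD-F1_b EVs was lost in the same settings as that of Me1 and by DESeq2.

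Of the subunits of pyruvate dehydrogenase phosphatase, which switches pyruvate dehydrogenase on, Pdp2 and Pdpr were called. The other catalytic subunit, Pdp1, was at 0.18 ± 0.25 SE with LD-F1 EVs (edgeR adjusted p = 0.666) and at 0.02 ± 0.25 with LD-F1_b EVs (adjusted p = 0.981). Pdp2, a catalytic subunit of that phosphatase, fell with LD-F1 EVs (-0.60 ± 0.13 SE, edgeR adjusted p = 0.00541) and with LD-F1_b EVs (-0.53 ± 0.13, adjusted p = 0.0187), at 19.7 and 18.5 CPM with LD-F1 EVs and 20.2 and 19.9 CPM with LD-F1_b EVs, against 29.4 and 28.3 CPM with PBS. Its regulatory subunit Pdpr fell with LD-F1 EVs (-0.46 ± 0.12, adjusted p = 0.0187) and was at -0.37 ± 0.12 with LD-F1_b EVs (adjusted p = 0.0761). Slc25a10, the mitochondrial dicarboxylate carrier, fell with LD-F1 EVs (-0.57 ± 0.13, adjusted p = 0.00616) and was at -0.39 ± 0.12 with LD-F1_b EVs (adjusted p = 0.0647). Ppargc1b, a coactivator of mitochondrial genes, fell with LD-F1 EVs (-0.70 ± 0.16, adjusted p = 0.00844) and was at -0.49 ± 0.16 with LD-F1_b EVs (adjusted p = 0.07). With LD-F1 EVs the Pdp2 call was lost without PBS replicate 1, the Ppargc1b call without PBS replicate 2, and the Pdpr and Slc25a10 calls without either. Pdpr also lost its call with length offsets when LD-F1 replicate 2 was left out. With LD-F1_b EVs, Pdpr, Slc25a10 and Ppargc1b passed the threshold in 7, 7 and 8 of 16 alternatives. Between EVs of the 2 strains they were at 0.09 ± 0.12, 0.18 ± 0.13 and 0.21 ± 0.17, with edgeR adjusted p of 0.764 to 0.903. The Pdp2 call with LD-F1_b EVs was lost whenever an LD-F1_b or a PBS library was left out.

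Of the 4 assembly factors of succinate dehydrogenase, Sdhaf1 rose with LD-F1_b EVs (1.04 ± 0.26 SE, edgeR adjusted p = 0.0223), at 7.58 and 6.15 CPM, against 2.81 and 3.84 CPM with PBS, and was at 0.56 ± 0.27 with LD-F1 EVs (adjusted p = 0.172). The Sdhaf1 call was lost in those same settings. In LD-F1 against PBS, LD-F1_b against PBS and LD-F1_b against LD-F1, edgeR called 21.2%, 11.0% and 0.424% of all genes tested. The 4 tested genes of itaconate handling had 0 calls there by edgeR, DESeq2 or limma voom. At an unadjusted p under 0.05 there were 1, 0 and 1. The 4 genes included Clybl, which breaks down citramalyl-CoA from itaconate (0.15 ± 0.18 with LD-F1 EVs), Rab32, a GTPase that binds the Acod1 protein (-0.07 ± 0.10), and Mut, the methylmalonyl-CoA mutase (-0.06 ± 0.11). Slc13a3, a dicarboxylate transporter, was at -0.77 ± 0.34 with LD-F1 EVs (adjusted p = 0.138). Abcg2, an exporter, had at most 6 counts in a library and was not tested.

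**Figure D5:**
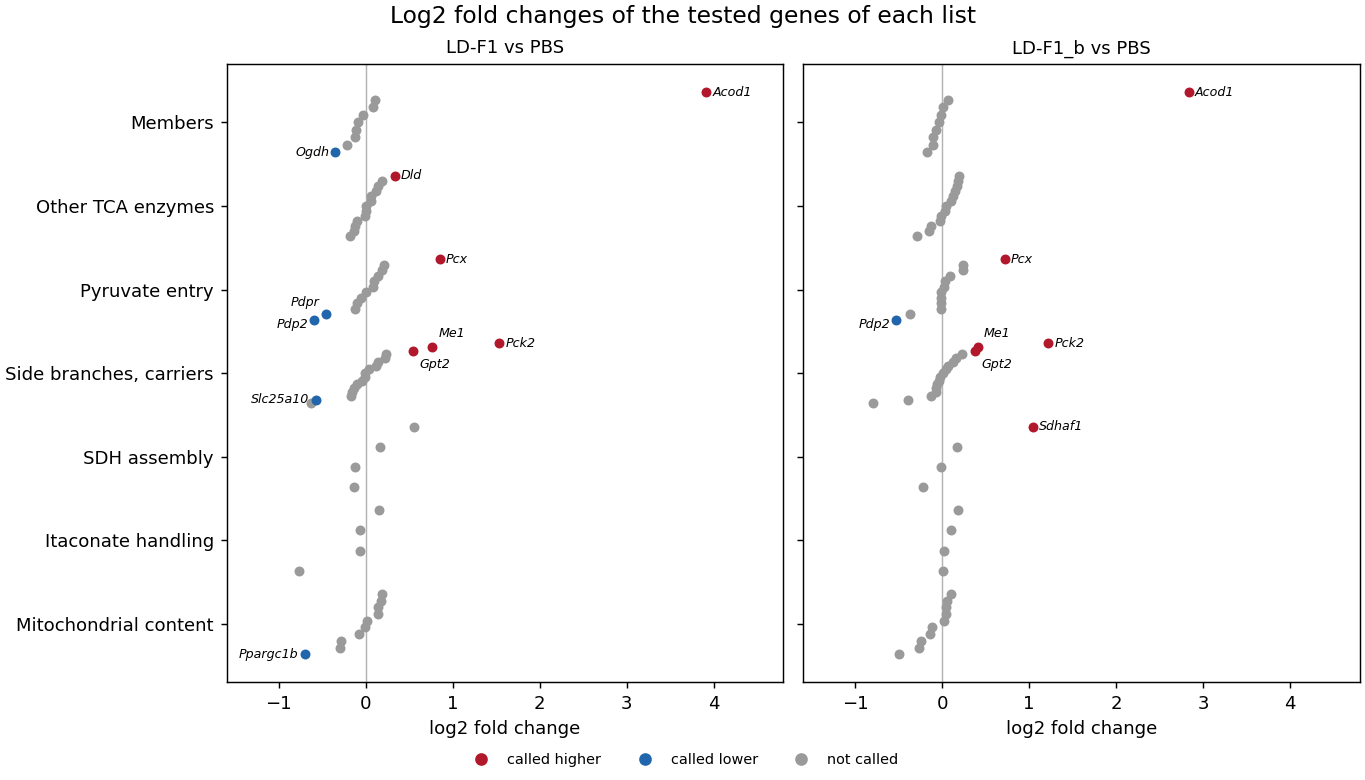
Log2 fold change (x axis) of the tested genes of each list (rows; points, sorted within a list) for LD-F1 EVs against PBS and LD-F1_b EVs against PBS. Called genes are named, and apart from Acod1 (3.92 and 2.83) the largest was Pck2 (1.53 and 1.22).

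The genes whose pattern over the 6 libraries was most like that of Acod1 were Phlda1, Chac1, Myc, Ccrl2 and Cd40. Likeness was the Euclidean distance of log2 CPM centred on each gene's mean. The 5 were drawn from 8785 candidates, genes with a symbol and a mean of at least 5 CPM. They lay at 0.58, 0.66, 0.74, 0.81 and 0.82, where the median over all other genes tested, candidates or not, was 4.06. Their log2 fold changes for LD-F1_b EVs against LD-F1 EVs were -1.28, -0.55, -0.62, -0.55 and -1.18 in that order. Acod1 was at -1.08 there. For Ogdh the nearest were Pi4ka, Slc12a7, Actn4, Nf2 and Tbc1d14, at 0.06 to 0.08 with a median of 0.64. Those 5 genes are 5131 to 11266 bases long.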

How the data were processed

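Poly(A)-selected RNA of 6 macrophage libraries was sequenced on an Illumina NovaSeq. The deposited values are whole-number counts of reads per gene, not normalised by the authors. Per the submitters' processing notes, the tools were featureCounts 1.5.0-p3, StringTie 1.3.3b, HISAT2 2.0.5 and fastp, with GRCm39. Identifiers are those of the C57BL/6NJ annotation, and the last gene on chromosome 1 of the deposited table ends at 208807027, against 195291439 in RefSeq's GRCm38.p6, so its positions are given as deposited and not mixed with others. Gene lengths, in bases, are another column of the deposited table. No source names the strand setting or how multi-mapping reads were handled. Entries overlapping Cs, Idh2 or Sdha held at most 9 counts in a library. Of the per-sample columns, 0 stayed unmatched, and 0 entries lacked an identifier.

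Genes were kept by filterByExpr (12740, with 99.89% to 99.92% of the counts) and scaled by TMM factors. The quasi-likelihood test of edgeR 4.0.16 in R 4.3.3 was fitted to all 6 libraries with a mean per group, robust estimation and 3 residual degrees of freedom, and was tested on simulated data. Calls needed an adjusted p under 0.05 (Benjamini-Hochberg, all tested genes), and "rose", "fell", "higher" and "lower" are used for called genes or for the order of libraries. SE and 95% intervals were computed back from the test, and SD is over 2 libraries. P-values and intervals rest on the spread between these libraries, which the fit moderates for each gene with that of the other genes. They therefore use more than the 3 residual degrees of freedom. TPM was computed from the counts and the deposited lengths. The reads carry no molecular identifiers, so 3 counts in a library, 0.189 to 0.225 CPM, is a floor for counting error only. The members, gene lists and alternatives were chosen with earlier results of these data known. Named genes were all members, listed genes called in any comparison or completing a member's step, and, for Acod1 and Ogdh, the 5 nearest patterns among genes with a symbol and a mean of at least 5 CPM. Mmut was matched through its older symbol Mut. Me3, Esrra and the markers Lyz2 and Hbb-bs were not analysed here, and 1 gene counted in the lists is not reported here by name. Alternatives were DESeq2 1.42.0 size factors, library totals alone, the DESeq2 Wald test, limma voom (limma 3.58.1), no filter, fits of 2 groups, a replicate block, length offsets (lowess span 0.3) and leaving out each library.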

Additional observations from a re-analysis of the deposited data

Results flagged for a closer look

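Acod1 differed between EVs of the 2 strains by the test of the difference itself, with a log2 fold change of -1.08 for LD-F1_b EVs against LD-F1 EVs (± 0.12 SE, n = 2 per group, edgeR adjusted p = 0.00133). Its values were 200 and 194 CPM with LD-F1_b EVs, against 471 and 363 CPM with LD-F1 EVs. Leaving out either LD-F1_b library ended the call.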

How the results depend on the processing

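Values recomputed under 16 alternatives (14 planned, and length offsets without either LD-F1 library, chosen after seeing the data) numbered 1488, of which 1392 were log2 fold changes. Of these 1392, 0 turned the direction of a called value. The sign changed in 65 values, all of uncalled results, among them Sdhb for LD-F1 against PBS (-0.16 without LD-F1 replicate 2) and Idh2 (0.03 without LD-F1 replicate 1). Leaving out 1 library gave Acod1 log2 fold changes of 3.71 to 4.09 (LD-F1 against PBS), 2.76 to 2.91 (LD-F1_b against PBS) and -1.26 to -0.88 (LD-F1_b against LD-F1). A lone library in an arm was assumed to vary like the others. Members called numbered 1 to 5, 1 to 2 and 0 to 2 in these comparisons, beside 2, 1 and 1 with all libraries, and listed genes 4 to 24, 1 to 15 and 0 to 5, beside 9, 6 and 0. With only the groups compared, members called numbered 1 (LD-F1 against PBS) and 2 (LD-F1_b against PBS), and listed genes 15 (LD-F1_b against PBS). Length offsets gave 10 listed genes for LD-F1_b against PBS. Adding the omission of LD-F1 replicate 1 gave 4 members and 24 listed genes (LD-F1 against PBS), 17 listed genes (LD-F1_b against PBS), and 2 members and 4 listed genes (LD-F1_b against LD-F1). Adding that of replicate 2 gave 5 members (LD-F1 against PBS) and 17 listed genes (LD-F1_b against PBS). The cause was not tested. Over all genes, LD-F1 against PBS had 2707 calls, 4497 without LD-F1 replicate 1 and 1213 without PBS replicate 1. LD-F1_b against PBS had 1398, or 3098 with only those groups and 401 to 3142 on leaving out 1 library. LD-F1_b against LD-F1 had 54, but 110 by DESeq2, 185 without the filter, 113 with length offsets, 33 with only those groups and 0 to 1152 on leaving out 1 library. Library totals alone moved the median of all genes to -0.10 (LD-F1 against PBS), made 33.6% of its calls higher instead of 53.5%, and put Sdhb at -0.02. For LD-F1_b against PBS that share was 41.7% instead of 58.7%. No pairing by replicate number was seen (correlations of deviations -0.02 to 0.08), a check that cannot exclude it. A replicate block gave Acod1 3.91 for LD-F1 against PBS, changed no member's call, and gave 2706, 1357 and 52 calls over all genes. Depth limits genes near 3 counts, and none of the members is near it.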
